A study of Rattus norvegicus with 7 samples.

Results

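The microRNAs described here are the mature products of the miR-17-92 cluster and of its paralogues, the miR-106a-363 and miR-106b-25 clusters. They were chosen by name, as the array spots assigned to rno-miR-17-5p, rno-miR-18a, rno-miR-19a, rno-miR-19b, rno-miR-20a, rno-miR-20b-5p, rno-miR-92a, rno-miR-93, rno-miR-106b and rno-miR-25 (rno, for rat, is left off below). That gave 10 of the 677 rat miRNAs on the array, with 20 of its 1644 probes. RNA came from livers of adult male Sprague-Dawley rats that ate a control diet (3 arrays) or a diet with 50 mg/kg of perfluorooctane sulfonate (PFOS), a persistent fluorinated surfactant (4 arrays), for 28 days. Each array carried RNA of 1 rat. The study labelled 4 animals per group, and its submitters dropped 1 control array that failed their quality checks. The comparison asks which liver miRNAs differed between the diets. In bulk liver RNA, fewer cells of a type and less RNA per cell cannot be told apart.

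Each of these clusters is transcribed as a single precursor RNA that is cut into several hairpins, and each hairpin gives a mature miRNA. A miRNA recognises its target messages mainly through its seed, bases 2 to 8 from the 5′ end, so that miRNAs with the same seed share many targets. The clusters are known for MYC- and E2F-driven transcription and for promoting cell cycle entry and survival. Well studied targets include the cell cycle inhibitor Cdkn1a and the transcription factor E2f1 for the miR-17 seed, and the pro-apoptotic gene Bcl2l11 for the miR-25/92 seed. In liver they have been studied mainly in regeneration and in tumours.

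All 10 miRNAs matched a mature sequence in RefSeq (GRCr8). They are shown because the values below are grouped by seed as well as by cluster. Capitals mark the seed, which defines 4 groups.
miR-17-5p: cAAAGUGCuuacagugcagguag
miR-20a: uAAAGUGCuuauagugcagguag
miR-20b-5p: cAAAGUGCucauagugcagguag
miR-93: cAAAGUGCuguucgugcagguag
miR-106b: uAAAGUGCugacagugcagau
miR-18a: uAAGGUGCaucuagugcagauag
miR-19a: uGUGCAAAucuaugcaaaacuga
miR-19b: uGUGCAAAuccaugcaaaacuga
miR-25: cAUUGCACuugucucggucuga
miR-92a: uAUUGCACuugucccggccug

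Members with a common seed are near copies outside it as well. Counting from 1 at the 5′ end, miR-17-5p and miR-20a differed by C1U and C12U, and miR-20a and miR-20b-5p by U1C and U10C. Within the miR-17 seed group, miR-93 and miR-106b were farthest apart, with 5 differences over 21 compared bases. The miR-19 pair differed by U11C alone, and miR-25 and miR-92a by C1U, U14C and U18C over 21 bases. How well the probes separate such close sequences was not tested.

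The 3 clusters lie on different chromosomes of the GRCr8 assembly. The miR-17-92 hairpins span chr15:98587848-98588632 on the plus strand, 785 bases with 6 hairpins. The miR-106a-363 hairpins span chrX:137342777-137343647 on the minus strand, 871 bases with 5 hairpins. The miR-106b-25 hairpins span chr12:22156641-22157134 on the minus strand, 494 bases with 3 hairpins inside Mcm7, which encodes a subunit of the replicative helicase. Mature miR-17-5p, miR-19b and miR-92a are each encoded on both chromosome 15 and chromosome X, so their signal cannot be assigned to 1 of the clusters.

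The liver label was checked against hepatocyte miRNAs such as miR-122. All 6 of the listed hepatocyte markers on the array were detected on every array, and their summed normalised signal was 70383 to 73688 in PFOS livers and 72390 to 72878 in control livers. Array brightness differed between the diets before normalisation. Over the 123 miRNAs that every array detected, the median unscaled signal averaged 258 ± 46.2 (SD, n = 4) on PFOS arrays and 149 ± 23.9 (n = 3) on control arrays, and the labelling spike-in, a synthetic RNA added before dye labelling, averaged 2894 ± 725 and 1290 ± 34.1. For both measures the 2 groups did not overlap (p = 0.0286 in a two-sided exact permutation test, which cannot go lower with 35 splits; Benjamini-Hochberg adjusted p = 0.1 over the array measures). The hybridisation spike-in, added after labelling, averaged 17887 ± 722 and 19009 ± 1271 (exact permutation p = 0.2). PFOS arrays detected 182 miRNAs on average and control arrays 149, with overlap between the groups (exact permutation p = 0.0857). Unscaled differences of the members on the log2 scale ran from 0.52 to 1.00, beside a median of 0.71 over the 123 miRNAs. The part of labelling in the results below, detections on PFOS arrays alone among them, was not tested.

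Of the 10 miRNAs, 9 were detected on all 7 arrays, meaning that 1 probe or more had over 50% of its kept spots well above background. They were among the 175 miRNAs tested with limma on log2 normalised signal, with Benjamini-Hochberg adjustment over all 175. None of the 9 passed the adjusted threshold of 0.05, nor did any of the other miRNAs (0 of 175, 0%). In 4 of the 9, every PFOS array lay above every control array, against 9.71% of all tested miRNAs, and none lay entirely below (background 9.71%). Among the 123 miRNAs detected on all 7 arrays, as these 9 were, 14 lay entirely above and 9 entirely below. When control replicate 1 was left out, 2 members lay entirely below, beside 24 of 175 tested miRNAs. When PFOS replicate 1 was left out, 1 did, beside 26 of 168. Those 4 miRNAs, miR-17-5p, miR-20a, miR-20b-5p and miR-93, all carry the miR-17 seed and come from all 3 clusters. Between any 2 of them, 2 to 4 of 23 bases differ. How well the probes separate them was not tested, so they may not be 4 separate readings. These 4 miRNAs were also the members with an unadjusted p under 0.05 in limma, against 8.57% of all tested miRNAs higher at that level. No member was lower at it (background 10.9%). Differences were positive for 7 of the 9, against 45.7% of all tested miRNAs, and negative for 2 (54.3%). The median difference over the members was 0.09 on the log2 scale, beside -0.02 over all tested miRNAs.

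The absolute direction rested on how arrays were scaled. Under labelling spike-in scaling all 9 members were negative (median -0.32), but the median of all tested miRNAs was then -0.44, and 7 of the 9 stayed above it, all 5 of the miR-17 seed among them. Scaling to the 75th percentile over all miRNAs made all 9 positive (median 0.37, beside 0.25 for all tested miRNAs), again with 7 above that median. Under cyclic loess with equal weights the members scattered, from -3.64 for miR-20a to 2.52 for miR-17-5p. There 3 of the 9 were positive, and 4 of the 9, with 3 of the 5 miR-17 seed members, lay above the median of all tested miRNAs (-0.06). The position of the members relative to the other miRNAs was thus not kept under that alternative. The members' standard errors under it were 0.85 to 2.29, against 0.07 to 0.10 as reported. Their positions and signs under it were therefore poorly determined. With the brightest probe of each miRNA, the members' median (0.037) was close to that of all tested miRNAs (0.035). There 5 of the 9 members lay above it, all of them of the miR-17 seed.

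**Figure D1:**
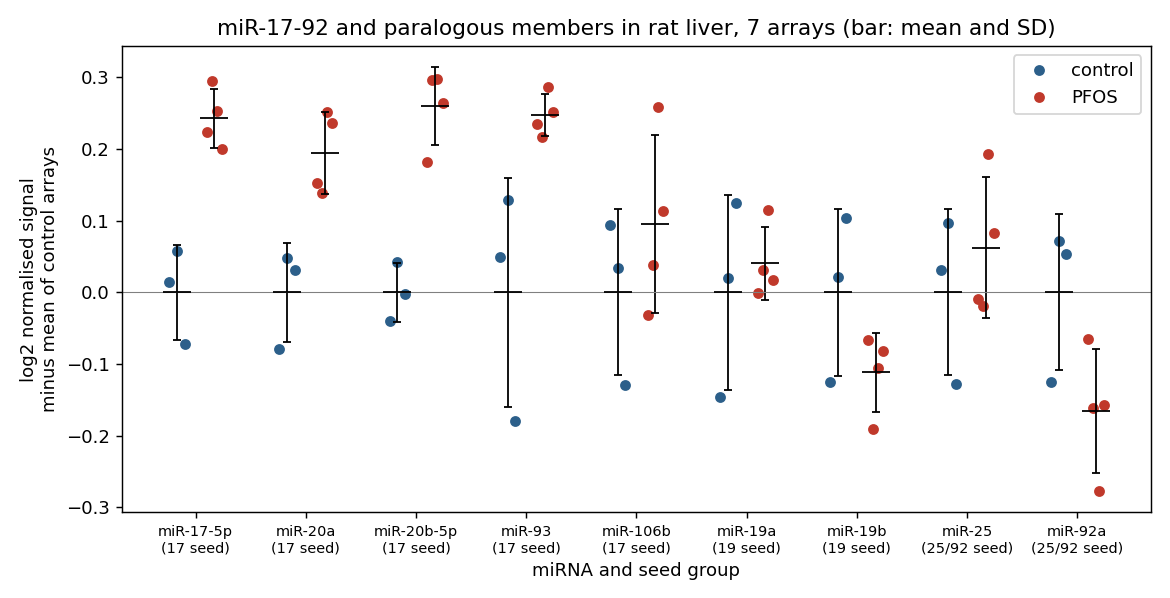
Log2 normalised signal of the 9 tested members on each array, minus the mean of the 3 control arrays, with 1 point per array (blue control, red PFOS) and the group mean and SD as a bar. The red and blue points do not overlap for miR-17-5p, miR-20a, miR-20b-5p and miR-93, and overlap for the other 5, and all 9 differences were negative under labelling spike-in scaling.

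miR-17-5p, which gave the cluster its name, had normalised signals of 62.4, 65.6, 63.7 and 61.4 on the PFOS arrays and 54.0, 55.6 and 50.8 on the control arrays. The lowest PFOS array was above the highest control array by more than the range of either group. The difference was 0.24 on the log2 scale (SE 0.07, 95% interval 0.08 to 0.41, limma adjusted p = 0.131). It was -0.19 under labelling spike-in scaling, 0.073 under normexp, 0.076 in the authors' deposited table, 0.50 with the 75th percentile of all miRNAs and 2.52 under equal-weights loess. miR-20a, encoded 3 hairpins further along the same cluster, gave 365, 362, 391 and 387 on PFOS arrays and 311, 340 and 336 on control arrays. All PFOS values were above all control values, with PFOS replicates 1 and 2 nearest to the controls. Its difference was 0.19 (SE 0.07, 95% interval 0.02 to 0.37, limma adjusted p = 0.224), with -0.25 under labelling spike-in scaling, -3.64 under equal-weights loess and -0.0064 in the authors' deposited table.

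miR-20b-5p, the X-linked paralogue of miR-20a, gave 179, 194, 194 and 190 on PFOS arrays and 154, 163 and 158 on control arrays. The groups were well apart, with PFOS replicate 1 nearest to the controls. Its difference of 0.26 was the largest among the members (SE 0.07, 95% interval 0.10 to 0.42, limma adjusted p = 0.131), with -0.14 under labelling spike-in scaling and -1.45 under equal-weights loess. Under normexp background correction the difference was 0.17 and passed the threshold (limma adjusted p = 0.0265). It was then 1 of 6 miRNAs called higher among 175 (3.43%), with no member among the 16 called lower (9.14%), and no other alternative called any member.

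miR-93, from the cluster inside Mcm7, gave 60.1, 59.4, 62.3 and 60.8 on PFOS arrays and 52.9, 55.9 and 45.1 on control arrays. The PFOS values were tightly grouped, and control replicate 3 was the lowest of all 7. Its difference was 0.25 (SE 0.09, 95% interval 0.03 to 0.46, limma adjusted p = 0.224). It was -0.18 under labelling spike-in scaling, 0.075 under normexp, 0.51 with the 75th percentile of all miRNAs and 2.39 under equal-weights loess. miR-106b, its neighbour in the same cluster with the same seed, gave 152, 160, 186 and 168 on PFOS arrays and 166, 159 and 142 on control arrays. These values overlapped, with the lowest PFOS array below 2 of the controls. The difference was 0.09 (SE 0.10, 95% interval -0.14 to 0.33, limma adjusted p = 0.667), -0.32 under labelling spike-in scaling and -0.0047 under equal-weights loess. It was 0.031 without PFOS replicate 3 and 0.15 without PFOS replicate 1. Its interval included the 0.25 of miR-93, and the ratio of miR-93 to miR-106b overlapped between the diets.

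The miR-19 pair, whose members come from the miR-17-92 cluster and, for miR-19b, also from its X-linked paralogue, overlapped between the diets. miR-19a gave 200, 205, 217 and 203 on PFOS arrays and 181, 203 and 218 on control arrays, with the highest and the lowest array both controls. Its difference was 0.04 (SE 0.09, 95% interval -0.17 to 0.25, limma adjusted p = 0.930), and it ran from -0.028 without control replicate 1 to 0.13 without control replicate 3. miR-19b gave 1322, 1214, 1287 and 1308 on PFOS arrays and 1270, 1406 and 1488 on control arrays. Control replicates 2 and 3 were above every PFOS array, while control replicate 1 lay among them. The difference of miR-19b was -0.11 (SE 0.08, 95% interval -0.31 to 0.08, limma adjusted p = 0.504). It was -0.06 without control replicate 3, -0.17 without control replicate 1, and 0.21 when arrays were only scaled to the 75th percentile of all miRNAs.

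The miR-25/92 seed group also stayed within its replicate spread. miR-25, the last member of the Mcm7 cluster, gave 153, 151, 175 and 163 on PFOS arrays and 157, 164 and 140 on control arrays. The overlapping values left a difference of 0.06 (SE 0.09, 95% interval -0.16 to 0.28, limma adjusted p = 0.803), which was 0.010 without PFOS replicate 3 and 0.11 without control replicate 2. miR-92a, which closes the miR-17-92 cluster, gave 549, 513, 474 and 515 on PFOS arrays and 526, 603 and 596 on control arrays. Only PFOS replicate 1 was above a control array. Its difference was -0.17 (SE 0.09, 95% interval -0.37 to 0.04, limma adjusted p = 0.366), or 0.08 when arrays were only scaled to the 75th percentile of all miRNAs. In the authors' deposited table, fitted the same way, miR-19b and miR-92a were both at -0.34 (limma adjusted p = 0.0755 and 0.0668), and neither was among the 9 miRNAs called lower there (5.14%), with 0 called higher (0%).

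miR-18a, the only member with its seed, was not tested. It was above background on PFOS replicates 3 and 4 and on no control array, but PFOS arrays detected more miRNAs on average. The normalised signals of miR-18a were 14.1, 9.54, 11.1 and 12.5 on PFOS arrays and 12.5, 14.9 and 11.3 on control arrays. These overlapped and lay near the floor of 12.1, so no fold is given. PFOS replicate 1, which did not detect miR-18a, was above replicates 3 and 4, which did.

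**Figure D2:**
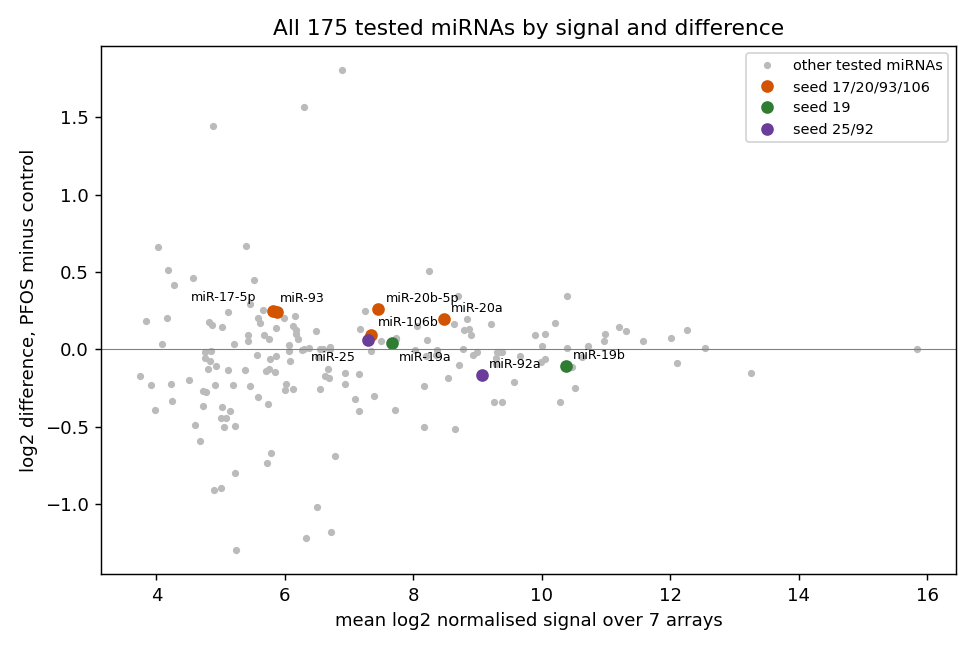
Log2 difference (PFOS minus control) against mean log2 normalised signal over 7 arrays for all 175 tested miRNAs, with 1 point per miRNA and the members coloured by seed. The 9 members run from -0.17 to 0.26 inside the range of all tested miRNAs (-1.30 to 1.81), with the 5 of the miR-17 seed on the positive side, which turned negative under labelling spike-in scaling.

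Grouped by seed, the 5 miR-17 seed members had a median difference of 0.24, all positive, with the range 0.09 to 0.26. The miR-19 pair had a median of -0.04 and the miR-25/92 pair of -0.05, each with 1 positive and 1 negative member. Grouped by cluster, the medians were 0.04 for the 5 tested products of miR-17-92 (3 positive, 2 negative) and 0.09 for the 3 of miR-106b-25 (all positive). The 2 negative members, miR-19b and miR-92a, count in both miR-17-92 and miR-106a-363. Medians of these 2 clusters therefore share members, unlike those of the seed groups. For miR-106a-363 the median was -0.11 over miR-20b-5p, miR-19b and miR-92a, or 0.07 with the second copy of miR-17-5p counted there. No set test was made, since the members were chosen with results of these data known.

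Ratios of members within an array do not depend on a scaling factor for the whole array. They can still change with the loess step. The mean log2 signal of the miR-17 seed group minus that of the miR-25/92 group, centred on the control mean, was 0.19, 0.29, 0.31 and 0.25 on PFOS arrays and 0.05, -0.02 and -0.03 on control arrays. Every PFOS array was above every control array, and the change was 0.26. Across the other alternatives that change ran from 0.14 under normexp to 0.29 without control replicate 1 and kept its sign. Under equal-weights loess it was 0.50, but the members' standard errors were 0.85 to 2.29 there, so that sign was poorly determined. Against the miR-19 pair the change was 0.24, again without overlap.

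Ratios were also taken between single members. miR-20a over miR-19b, both from the chromosome 15 cluster, changed by 0.31. miR-20b-5p over miR-19b changed by 0.37, miR-17-5p over miR-92a by 0.41, and miR-93 over miR-25 by 0.19. The groups did not overlap in any of these 4 ratios. Under equal-weights loess miR-20a was at -3.64 and miR-19b at -2.15, so miR-20a over miR-19b turned negative. The other ratios of these 4 kept their sign there. With standard errors of 0.85 to 2.29 for the members under that setting, none of these signs was well determined. With the 75th percentile over detected miRNAs and no loess, miR-20a was at 0.23 and miR-19b at 0.0018. miR-106b over miR-25, neighbours in the Mcm7 cluster, changed by 0.03, with overlap. All ratios between members of the miR-17 seed overlapped. Among miR-17-5p, miR-20a, miR-20b-5p and miR-93 they changed by -0.07 (miR-20a over miR-20b-5p) to 0.05 (miR-17-5p over miR-20a). The ratios of these 4 to miR-106b changed by 0.10 (miR-20a) to 0.17 (miR-20b-5p). Of the 36 pairs of tested members, 13 did not overlap, beside 15.8% of the 15225 pairs of all tested miRNAs. They were 12 of the 20 pairs with 1 member of the miR-17 seed, 0 of the 10 with 2, and 1 of the 6 with none, which was miR-19a over miR-19b with a change of 0.15. Pairs share members, so these counts are not independent and have no test.

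**Figure D3:**
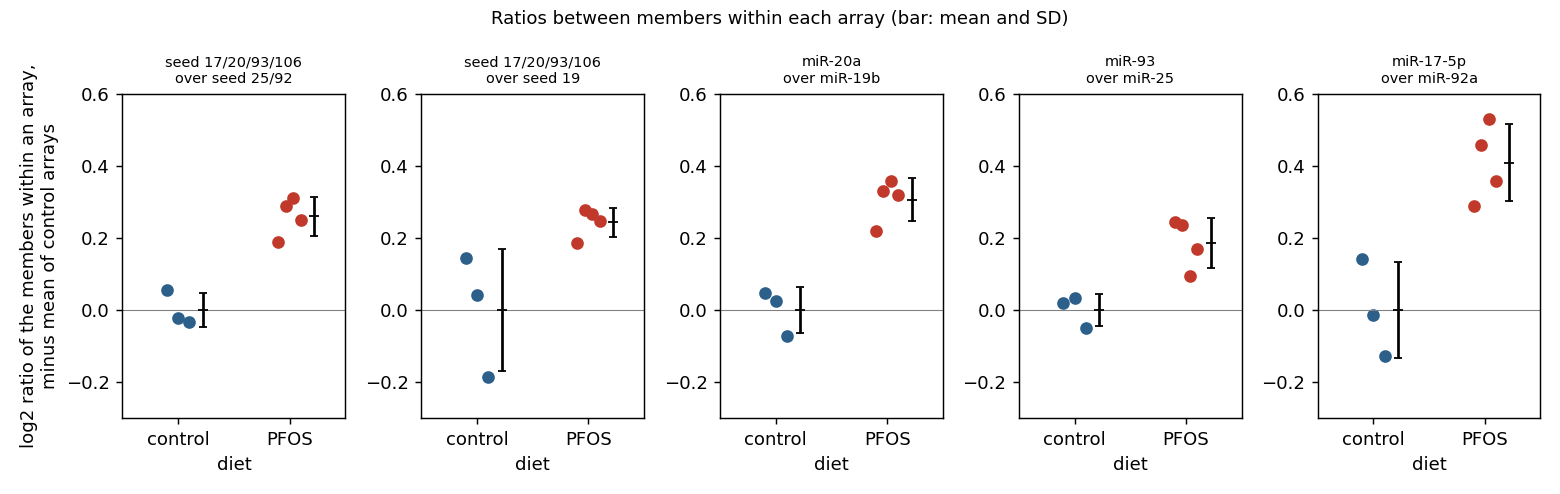
Log2 ratio between members within each array, minus the mean of the control arrays, with 1 point per array (blue control, red PFOS) and the group mean and SD beside the points. The PFOS and control points do not overlap in any of the 5 panels, and the changes run from 0.19 for miR-93 over miR-25 to 0.41 for miR-17-5p over miR-92a. Under equal-weights loess, miR-20a over miR-19b turned negative.

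Each member has 2 probes, which read the same RNA and are not independent. Of the member probes, 16 were above background on all 7 arrays, a restriction made after looking at the data. Of these, 12 had a positive difference (50.5% of the 212 probes above background on all arrays), 5 were higher without overlap (10.4%) and 0 were lower without overlap (7.08%). In all 7 miRNAs with both probes among the 16, the probes had the same sign. None of the 18 member probes tested passed the adjusted threshold, which 2 of 320 probes did (0.625%). The 2 probes of miR-20b-5p gave 0.25 (SE 0.07) and 0.28 (SE 0.06), and those of miR-20a gave 0.22 (SE 0.07) and 0.17 (SE 0.09), the second with overlap. For miR-92a they gave -0.22 (SE 0.10) and -0.13 (SE 0.08).

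The dimmer probe of miR-17-5p gave 10.3, 14.1, 11.7 and 11.7 on PFOS arrays and 8.91, 7.46 and 8.04 on control arrays. The dimmer probe of miR-93 gave 10.2, 11.05, 11.5 and 10.96 on PFOS arrays and 9.53, 7.34 and 7.98 on control arrays. Both were well above background on 3 PFOS arrays and on no control array, so no fold is given for them. As stated above, PFOS arrays detected more miRNAs on average, and the part of this in the detection of these probes was not tested. They are left out of the counts above. The brighter probes, above background on all arrays, gave 0.22 for miR-17-5p and 0.26 for miR-93.

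**Figure D4:**
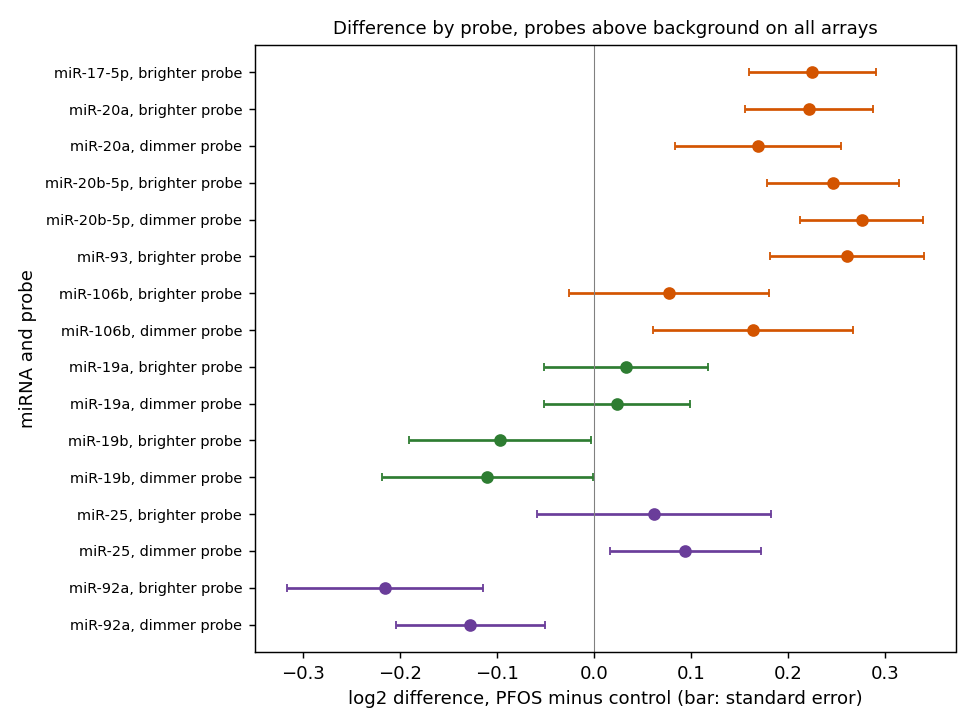
Log2 difference (PFOS minus control) of each of the 16 member probes above background on all arrays, with the limma standard error as a bar, coloured by seed (orange miR-17, green miR-19, purple miR-25/92). In the 7 miRNAs with both probes drawn, they fall on the same side of 0, and miR-17-5p and miR-93 have their brighter probe only.

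The slide held its arrays in 2 rows, each with both diets: 2 PFOS arrays and 1 control in the first row, 2 PFOS arrays and 2 controls in the second. Differences within the first and the second row were 0.24 and 0.23 for miR-17-5p, 0.23 and 0.20 for miR-20a, 0.28 and 0.26 for miR-20b-5p, and 0.18 and 0.29 for miR-93. These 4 were positive in both rows, and miR-93 differed most between them. miR-106b was -0.09 in the first row and 0.23 in the second, and miR-25 was -0.05 and 0.15. miR-92a was 0.01 and -0.28, and miR-19a was 0.16 and -0.01. In all, 5 of the 9 had the same sign in both rows, and with the row as a block no member passed the threshold in limma.

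Other products of the clusters and other miRNAs with the same seeds were mostly below background. Of 21 listed names, 18 were on the array and 2 were detected on at least 1 array. The listed miR-17-3p appeared on the array under the names miR-17-1-3p and miR-17-2-3p, which are not among the 18 and were detected on no array. miR-20a*, the opposite strand of the miR-20a hairpin, was detected on 1 PFOS array only. miR-32, which carries the miR-25/92 seed but is encoded elsewhere, was detected on 3 PFOS arrays and no control array. Its signals were 14.2, 25.2, 20.6 and 31.4 on PFOS arrays and 21.8, 14.0 and 14.8 on control arrays. These overlapped. As no control array detected it, and PFOS arrays detected more miRNAs on average, no fold or p is given. miR-363 and miR-92b, which share that seed, were detected on no array.

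Over the 7 arrays, the 3 other miRNAs whose log2 profile was most like the mean profile of the miR-17 seed group were miR-30a (Pearson r = 0.96), miR-101a (0.92), which is also on the hepatocyte list, and miR-30e (0.88). Their differences were 0.17 (limma adjusted p = 0.233), 0.20 (0.224) and 0.13 (0.351). All 3 were higher without overlap between the diets, against 9.71% of all tested miRNAs. They were picked by likeness to a profile that was itself higher in PFOS livers, which favours such miRNAs, so this adds no support. These correlations describe arrays that share the diets and the normalisation, and no p is given for them.

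Marker miRNAs of other liver cells were compared in the same way. For leukocytes and Kupffer cells, 6 of 6 markers present were tested; their median difference was -0.03 and summed signals of 1088 to 1406 in PFOS livers and 1204 to 1330 in controls. Erythroid markers (2 of 3 tested, miR-144* detected on no array) summed to 448 to 1090 and 529 to 945, endothelial markers (2 of 2) to 1714 to 1854 and 1571 to 1936, and stellate and fibroblast markers (5 of 5) to 746 to 1047 and 819 to 1023. All of these ranges overlapped, but a sum mostly reflects the brightest markers of its list. At an unadjusted p under 0.05 in limma, 1 of the 6 leukocyte markers (miR-223, -0.23) and 1 of the 5 stellate markers (miR-145, -0.23) were lower. Of the 6 hepatocyte markers, miR-122* was lower (-0.25) and miR-101a higher (0.20). Over all tested miRNAs, 10.9% were lower and 8.57% higher at that level. The epithelial sums did not overlap, with 3 of 5 markers tested, a median difference of 1.57, and summed signals of 323 to 560 in PFOS livers against 87.8 to 212 in controls. Only 2 of these 3 were detected on every array, so the median and the sums include a marker that was not. Such a marker can be tested through PFOS detections alone, which favours markers that are higher in PFOS livers. miR-200c and miR-141 of that list were detected on no array. The part of epithelial cells in the members' differences was not tested.

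**Figure D5:**
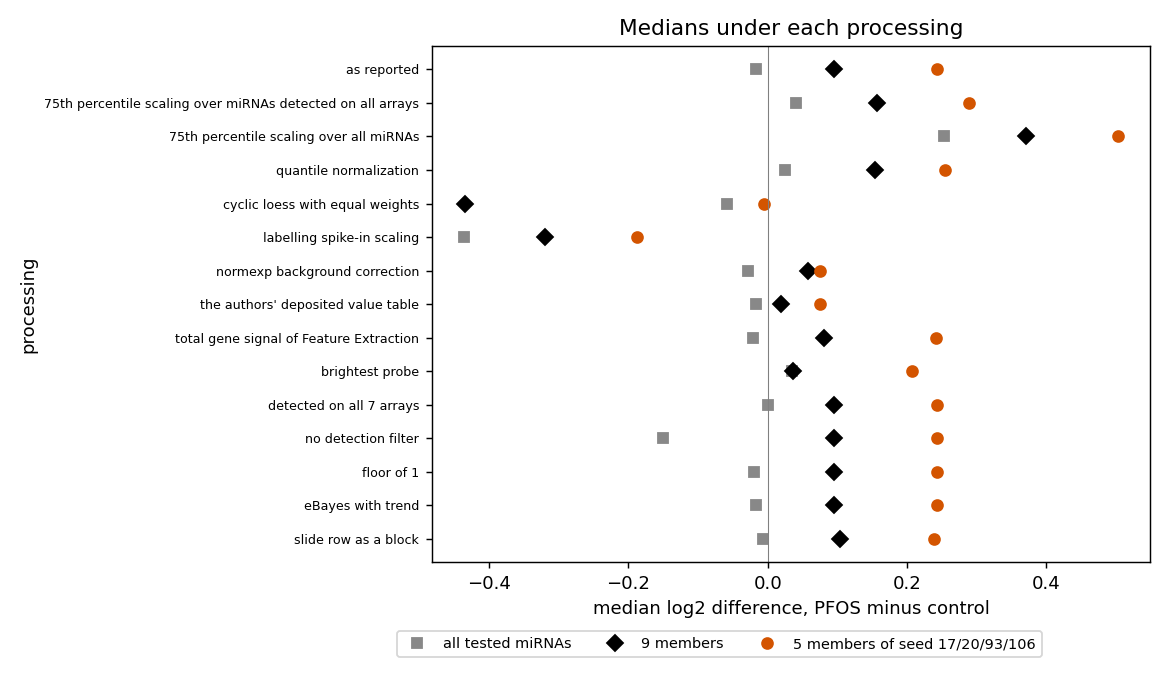
Median log2 difference (PFOS minus control) under each way of processing, for all tested miRNAs (squares), the 9 tested members (diamonds) and the 5 members of the miR-17 seed (circles). The circles lie to the right of the squares in every row, from -0.19 under labelling spike-in scaling to 0.50 with the 75th percentile of all miRNAs, while the diamonds fall to -0.43 under equal-weights loess.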

How the data were processed

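Per the file headers, the deposited intensity values came from 1-colour Agilent miRNA arrays on 1 slide, read with Feature Extraction 10.7.3.1, and the processed signal is background-subtracted but not normalised between arrays. The deposited series table holds log2 values that the authors normalised by cyclic lowess, per the labels. Its column medians were 5.48 to 5.51 and its values followed the median pixel signal (r of 0.994 to 0.998 across miRNAs). Its lowess settings are unknown here.

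Spots with an outlier flag were dropped, probes averaged, and the probes of a miRNA summed. Arrays were brought to the same 75th percentile, taken over miRNAs that every array detected, floored at the 1st percentile of detected values (12.1), and put through weighted cyclic loess (span 0.7, 3 iterations) on log2 values. Tested were miRNAs detected on all 3 control arrays or at least 3 PFOS arrays, with limma 3.58.1 in R 4.3.3 and Benjamini-Hochberg adjustment at 0.05. Probes were normalised and tested separately. The steps were tested on simulated data, with planted differences larger than any found for the members. Normexp (offset 50) used the median pixel signal in place of the planned mean. Negative control spots had a median pixel signal of 48.1 on PFOS arrays and 49.3 on control arrays. An added offset, or background left in a signal, makes log2 differences of dim miRNAs smaller. Normexp and deposited values are therefore not on the same measure as the background-subtracted signal.

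Members and lists were chosen with earlier results of these data known. Named were all 10 members, tested relatives of the same clusters or seeds, and the 3 miRNAs with the most similar profile. Other relatives, the pairs of members and miRNAs of the marker lists were named after their values were seen.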

Additional observations from a re-analysis of the deposited data

Results flagged for a closer look

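In 1 of the 2 probes of miR-19b, PFOS replicate 3 stood apart from the other PFOS livers. Its normalised signal was 346.6, against 416.6 to 431.9 on the other 3 PFOS arrays, and the gap took up 0.835 of the group's range on the log2 scale. The labelling spike-in also had 1 PFOS array far above the rest, at 3970 against a group mean of 2894, with a gap of 0.850 of the range. Of 33 groups of 4 PFOS values screened, these 2 were picked out. Both gaps are above Dixon's critical value for 4 samples, which chance alone passes in about 1 group in 20.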

How the results depend on the processing

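No member passed the adjusted threshold under any alternative but normexp (1 member, miR-20b-5p, 0.17). The count over all tested miRNAs, 0 as reported, was 22 with normexp (6 higher, 16 lower), 9 in the authors' table, 8 under labelling spike-in scaling, 4 with the slide row as a block, 3 with the 75th percentile over all miRNAs, 1 with the total gene signal of Feature Extraction and 1 with no detection filter. The members' median, 0.09 as reported, was 0.16 with the 75th percentile over detected miRNAs, 0.37 with it over all miRNAs, 0.15 with quantile normalisation, -0.43 with equal-weights loess, -0.32 with spike-in scaling, 0.019 in the authors' table, 0.037 with the brightest probe, and 0.16 and 0.20 in the first and second slide row. Leaving out 1 array gave 0.031 (without PFOS replicate 3) to 0.15 (without PFOS replicate 1) for the members, 0.23 to 0.26 for the miR-17 seed group, and 0 calls each time. The miR-17 seed median, 0.24 as reported, was 0.50 with the 75th percentile over all miRNAs, -0.0047 with equal-weights loess, -0.19 with spike-in scaling, 0.075 with normexp and 0.076 in the authors' table. Signs turned for miR-19b with the 75th percentile over detected miRNAs (0.0018) and over all miRNAs (0.21), and for miR-92a with the latter (0.075). With equal-weights loess, where the members' standard errors were 0.85 to 2.29, they turned for miR-20a (-3.64), miR-20b-5p (-1.45), miR-106b (-0.0047) and miR-25 (-0.43). With spike-in scaling they turned for miR-17-5p (-0.19), miR-20a (-0.25), miR-20b-5p (-0.14), miR-93 (-0.18), miR-106b (-0.32), miR-19a (-0.36) and miR-25 (-0.35). In the authors' table they turned for miR-20a (-0.0064) and miR-19a (-0.0083). miR-19a also turned with the brightest probe (-0.00059) and, among the fits without 1 array, which gave -0.028 to 0.13, without control replicate 1 (-0.028). The cause was not tested. The 4 members higher without overlap (beside 17 of all 175 tested miRNAs) became 0 under quantile normalisation (12 of 175), equal-weights loess (4) and spike-in scaling (0). They became 2 in the authors' table (11 of 175) and 6 with the 75th percentile over all miRNAs (27). Under spike-in scaling 2 members lay below without overlap, beside 53 of 175 tested miRNAs. The count was also 2 in the authors' table (32 of 175) and without control replicate 1 (24 of 175). It was 1 without PFOS replicate 1 (26 of 168). Counting all 18 tested member probes, as planned, gave 14 positive and 7 higher without overlap. The 16, a restriction chosen after seeing the data, gave 12 and 5. The probes added by the 18 are the dimmer ones of miR-17-5p and miR-93. These qualified for testing through their PFOS detections alone, which favours probes that are higher in PFOS livers. The larger counts therefore add no support, and no background share is given for the 18. No paired analysis was possible because the labels give no replicate number shared between the diets. With 4 and 3 arrays, precision was limited by their number, and p-values measure the spread between these animals on 1 slide.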
